A study of Mus musculus with 3 samples.

Results

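Neurofilaments are the intermediate filaments of the axon, built as heteropolymers of a light, a medium and a heavy subunit together with alpha-internexin, and their abundance sets the calibre of myelinated axons. The light subunit leaks from damaged axons and is measured in cerebrospinal fluid and blood as a marker of axon injury. Stathmin-2, GAP-43, class III beta-tubulin and the ubiquitin hydrolase UCH-L1 are neuronal proteins of the growing or maintained axon. The transcripts of these proteins are made in the neuronal cell body, so a tissue RNA measurement reports the supply of message and not the state of the fibres.

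The 8 genes described here are Nefl, Nefm, Nefh and Ina, which encode the filament subunits, and Stmn2, Gap43, Uchl1 and Tubb3, which encode the other axon proteins. They were chosen by gene name, and all 8 were found, among 54532 genes in the table. RNA was sequenced from the hippocampus of mice aged 10 months on a C57BL/6 background in 3 samples. The groups were WT mice without the transgene, PS19 mice, and PS19 mice with the Zbp1+- genotype, that is with a single intact allele of Zbp1, and each was represented by 1 library. PS19 mice carry a mutant human tau transgene under the mouse prion protein promoter, so both PS19 genotypes express human tau widely in neurons. The Zbp1 protein binds Z-form RNA and DNA and can trigger inflammatory cell death. Sex, pooling of animals and litter are not given in the sources used here. With 1 library per genotype no difference below has a replicate check and no p-value was computed, so every statement compares these 3 libraries and not the genotypes.

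Whole reads could be recovered from the deposited FPKM values (fragments per kilobase of gene, scaled to an implied library size). They summed to between 16400328 and 17109734 per library. The implied size is not the read total: for PS19 Zbp1+/- it was 15826984, below its 17109734 reads, which raises the FPKM values of that library. Zbp1 itself had 5 WT reads, 91 PS19 reads and 0 in the library labelled PS19 Zbp1+/-, where a count of 0 allows an FPKM of up to 0.0537, so this gene could not check that label. Xist had 11062 and 13350 reads in WT and PS19 and 0 in PS19 Zbp1+/-, while the Y-linked Ddx3y had 0, 0 and 711, so that sex and genotype cannot be told apart in either comparison with PS19 Zbp1+/-. The summed FPKM of choroid plexus markers was 3127 in the WT library, 1916 in the PS19 library and 10.7 in the PS19 Zbp1+/- library. Markers of oligodendrocytes summed to 914, 1633 and 593, those of astrocytes to 488, 683 and 592, and those of microglia to 126, 399 and 130 in the same order. The defining neuronal markers were present in every library, with summed FPKM values of 1884, 1658 and 2620 over 13 genes. In a bulk sample, fewer neurons and less RNA per neuron cannot be told apart.

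All 8 genes were among the well expressed genes of the hippocampus. Together they took 0.209%, 0.168% and 0.226% of the reads of WT, PS19 and PS19 Zbp1+/-. Per kilobase, Uchl1 stood first, at place 51 among protein-coding genes in WT, and Nefh stood last, at place 2672. The order of levels in WT was Uchl1, Tubb3, Nefl, Gap43, Stmn2, Ina, Nefm and Nefh. Each gene in that order exceeded the next by more than the counting error (exact 95% Clopper-Pearson intervals of the ratio), by 1.09-fold at the narrowest step, from Nefl to Gap43 (interval 1.04 to 1.14). The order, and the subunit shares below, also rest on the deposited gene lengths, which these intervals do not cover. Stmn2 had more WT reads than Gap43 (5163 against 2508) but stood behind it at a length of 5602 bases against 1523. In PS19 Gap43 stood behind Ina, and those neighbours did not differ beyond counting error (ratio 1.02, interval 0.953 to 1.09). In PS19 Zbp1+/- Gap43 stood behind Uchl1 and Tubb3 only, above Nefl by a ratio of 1.39 (1.34 to 1.46). Intervals here and below cover counting error alone: without molecular identifiers, reads cannot be taken as independent molecules.

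**Figure D1:**
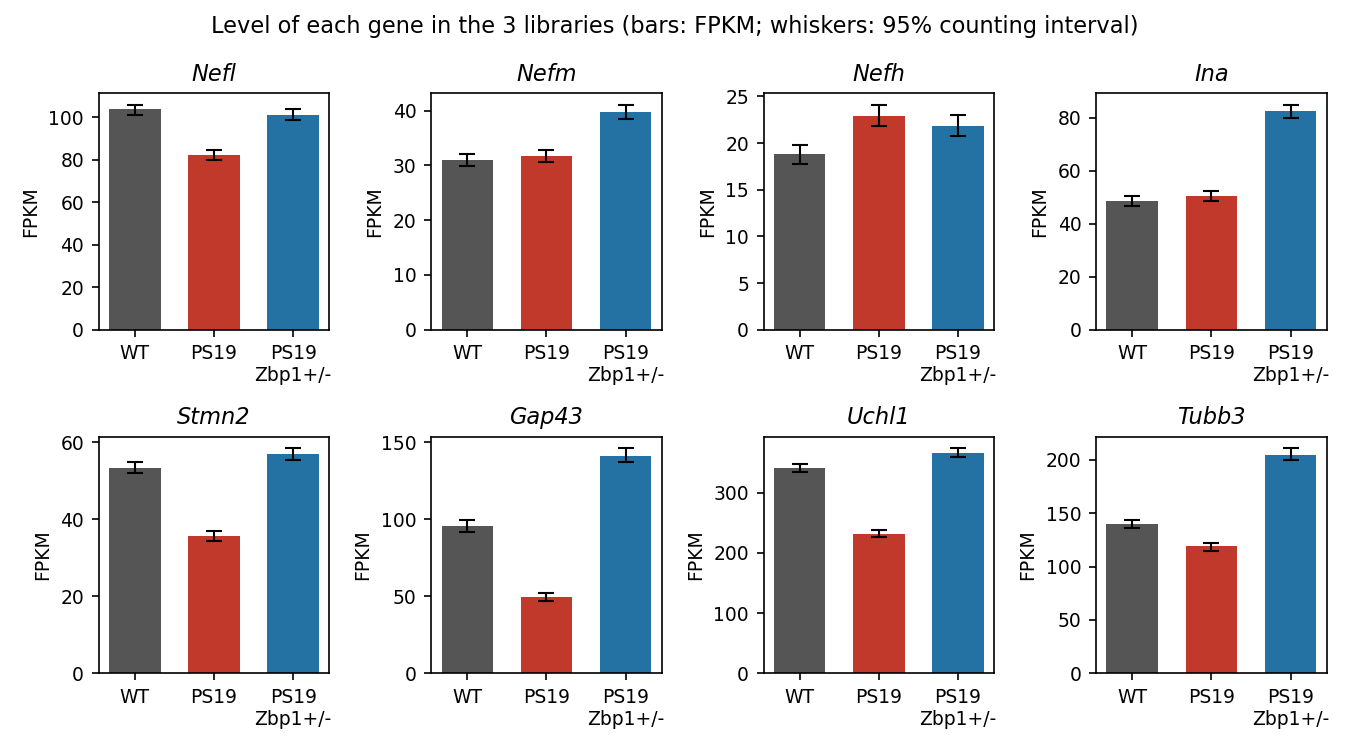
FPKM of the 8 genes (vertical axes, linear from 0) in the WT, PS19 and PS19 Zbp1+/- libraries, 1 library each, with exact 95% counting intervals as whiskers. PS19 is the lowest bar for Nefl, Stmn2, Gap43, Uchl1 and Tubb3, and PS19 Zbp1+/- is the highest for Nefm, Ina, Stmn2, Gap43, Uchl1 and Tubb3.

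Among the filament subunits, the light chain was the one with less message in PS19 than in WT on the deposited scaling. Nefl, which encodes the light subunit, had an FPKM of 104 in WT, against 82.4 in PS19 and 101 in PS19 Zbp1+/-. WT and PS19 Zbp1+/- lay close together and PS19 lay below both. PS19 held 0.795 times the WT reads per implied library size (95% interval 0.765 to 0.826), and PS19 Zbp1+/- held 1.23 times those of PS19 (1.18 to 1.28). The ratio of PS19 Zbp1+/- to WT was 0.977 (0.942 to 1.01), which is within counting error of no difference. The size of the PS19 decrease depended on the scaling. As a log2 difference from WT, Nefl in PS19 was at -0.33 as deposited, -0.20 at equal FPKM sums (TPM) and -0.30 by total reads. It was at -0.25 after a correction for GC content and length, and only -0.07 when centred on neuronal markers.

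Nefm, the medium subunit, which carries a long phosphorylated tail, had FPKM values of 31.0, 31.8 and 39.8 in WT, PS19 and PS19 Zbp1+/-. The first pair of libraries did not differ beyond counting error (ratio 1.03, interval 0.976 to 1.08), and PS19 Zbp1+/- stood above PS19 by a ratio of 1.25 (1.19 to 1.31). Nefh, the heavy subunit of large myelinated axons, ran the other way from Nefl. Its FPKM values were 18.8, 22.9 and 21.8, so that PS19 stood at 1.22 times WT (1.13 to 1.31) and PS19 Zbp1+/- at 0.953 times PS19 (0.886 to 1.03). On the deposited scaling both PS19 genotypes therefore lay above WT for Nefh and did not differ from each other beyond counting error. That closeness depended on the scaling. The log2 difference between PS19 Zbp1+/- and PS19 was -0.34 at equal FPKM sums (TPM) and -0.25 by total reads. It was -0.53 centred on neuronal markers and -0.40 after a correction for GC content and length. Between PS19 Zbp1+/- and WT these scalings gave 0.06, 0.06, -0.09 and -0.10 in the same order.

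Ina, alpha-internexin, the subunit that appears earliest in developing neurons and persists in thin central axons, had FPKM values of 48.5, 50.4 and 82.5. WT and PS19 were level within counting error (ratio 1.04, interval 0.986 to 1.10). PS19 Zbp1+/- stood apart from both, at 1.64 times PS19 (1.56 to 1.72) and 1.70 times WT (1.62 to 1.78). Of the filament subunits Ina had the widest range over the 3 libraries.

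In the reads as deposited the subunits did not keep a fixed ratio. A ratio of genes within a library does not depend on a factor common to all its genes, so shares of the summed FPKM of the 4 subunit genes were compared. Nefl made up 51.4% of the WT sum, 44.0% of the PS19 sum and 41.3% of the PS19 Zbp1+/- sum. Ina made up 24.0%, 26.9% and 33.6%. Nefm stayed between 15.3% and 16.9%, and Nefh took 9.30%, 12.2% and 8.90%. The Nefl to Nefm ratio, per kilobase, was 3.35 in WT, against 2.59 in PS19 and 2.55 in PS19 Zbp1+/-. PS19 lay below WT by a factor of 0.775 (exact conditional 95% interval 0.727 to 0.825), while the PS19 genotypes did not differ beyond counting error (0.982, interval 0.923 to 1.04). A correction for GC content and length acts gene by gene and moved this ratio, since Nefl has a GC content of 48.8% and Nefm of 57.8%. The log2 difference of Nefl minus that of Nefm was -0.36 as deposited and -0.21 corrected between PS19 and WT, -0.02 and 0.17 between PS19 Zbp1+/- and PS19, and -0.38 and -0.01 between PS19 Zbp1+/- and WT. The lower ratio in PS19 Zbp1+/- than in WT was therefore not seen after that correction. The Nefl to Nefh ratio was 5.52, 3.60 and 4.64 in WT, PS19 and PS19 Zbp1+/-. The log2 difference of Nefl minus that of Nefh was -0.60 as deposited and -0.58 corrected between PS19 and WT. It was 0.36 and 0.67 between PS19 Zbp1+/- and PS19. Between PS19 Zbp1+/- and WT it changed sign, from -0.24 to 0.14.

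**Figure D2:**
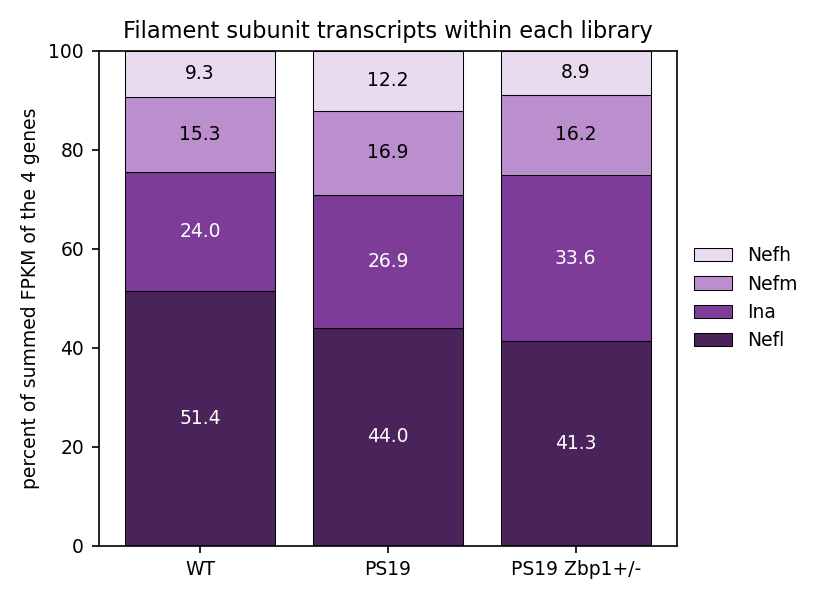
Share of each filament subunit gene in the summed FPKM of Nefl, Ina, Nefm and Nefh (vertical axis, percent) within the WT, PS19 and PS19 Zbp1+/- libraries. The Nefl share is 51.4% in WT and 41.3% in PS19 Zbp1+/-, and the Ina share is 24.0% and 33.6%.

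Reads of Nefl and Nefm are not fully separable. In GRCm38, by the table's coordinates, Nefl lies at chr14:68083863-68089095 on the plus strand, inside the span given for Nefm, chr14:68082590-68124846 on the minus strand. In GENCODE M21 a far exon of an Nefm transcript covers 1108 of the 3380 exonic bases of Nefl, or 32.8%, on the opposite strand. No setting for strand is given in the sources used here, and what share of reads from those bases was dropped or assigned to either gene was not tested. The 3 libraries share this annotation. Ina has a smaller overlap, with 456 of its 3240 exonic bases shared with Nt5c2 on the opposite strand, and Nt5c2 had 1065, 1145 and 957 reads. For Uchl1, the antisense gene Uchl1os shares 295 exonic bases and held 6, 2 and 0 reads.

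Of the 8 genes Gap43 differed most between libraries. Gap43 (chr16:42248442-42340651, minus strand), a growth cone membrane protein that in the adult is kept in neurons with plastic terminals, had an FPKM of 95.4 in WT, against 49.5 in PS19 and 141 in PS19 Zbp1+/-, from 2508, 1304 and 3406 reads. PS19 was lowest and PS19 Zbp1+/- highest. The PS19 to WT read ratio was 0.519 (0.485 to 0.555), and the ratio of PS19 Zbp1+/- to PS19 was 2.85 (2.68 to 3.04). PS19 Zbp1+/- also exceeded WT, by 1.48 (1.41 to 1.56).

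Stmn2 (chr3:8509360-8561606, plus strand), a microtubule regulator needed for axon maintenance and regrowth, had FPKM values of 53.4, 35.6 and 56.9. Uchl1 (chr5:66676091-66687234, plus strand), an abundant neuronal enzyme that maintains free ubiquitin, had 341, 232 and 366. In both genes PS19 lay below the other libraries, which were close to each other. The PS19 to WT ratios were 0.666 for Stmn2 (0.637 to 0.695) and 0.680 for Uchl1 (0.659 to 0.702). The ratios of PS19 Zbp1+/- to WT were 1.06 (1.02 to 1.11) and 1.07 (1.04 to 1.10).

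Although they lie on different chromosomes and differ in level, Stmn2 and Uchl1 stood in nearly the same proportion to each other in the uncorrected reads of the 3 libraries. The per-kilobase ratio of Stmn2 to Uchl1 was 0.156, 0.153 and 0.155 in WT, PS19 and PS19 Zbp1+/-. None of the 3 comparisons of that ratio left counting error, with intervals of 0.928 to 1.03, 0.961 to 1.07 and 0.946 to 1.04 around a factor of 1. For the 28 possible pairs among the 8 genes, the interval excluded 1 for 26 pairs between PS19 and WT, for 23 between PS19 Zbp1+/- and PS19 and for 25 between PS19 Zbp1+/- and WT. The Stmn2 and Uchl1 pair was the only pair whose interval held 1 in all 3. These genes differ in GC content, 41.3% for Stmn2 and 56.8% for Uchl1, and after the GC and length correction their log2 differences were -0.54 and -0.38 between PS19 and WT, 0.84 and 0.54 between PS19 Zbp1+/- and PS19, and 0.29 and 0.13 between PS19 Zbp1+/- and WT. The shared proportion was not particular to this pair. Outside the 8, Cyb561 (FPKM 24.0, 15.9 and 25.5) and Ackr1 (26.6, 17.8 and 28.5) had much the same pattern over the 3 libraries.

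Tubb3 (chr8:123411424-123422015, plus strand), the neuronal beta-tubulin, had FPKM values of 140, 119 and 205. PS19 stood at 0.849 times WT (0.813 to 0.887). PS19 Zbp1+/- stood at 1.73 times PS19 (1.66 to 1.80) and 1.47 times WT (1.42 to 1.53). Tubb3, Gap43 and Ina were the 3 genes farthest above WT in PS19 Zbp1+/-, at ratios of 1.47, 1.48 and 1.70.

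Promoter sequences from RefSeq (GRCm38.p6) were at hand for 3 of the 8 genes, and are shown because they belong to genes of differing patterns: Ina and Tubb3, highest in PS19 Zbp1+/- and well above WT there, and Uchl1, near its WT level there. Each runs 5′ to 3′ on the plus strand and stops before the gene's annotated start. The windows are chr19:47014431-47014680 for Ina, chr8:123411303-123411423 for Tubb3 and chr5:66675871-66676090 for Uchl1. Capitals mark GC boxes (GGGCGG, or CCGCCC on the other strand).
Ina: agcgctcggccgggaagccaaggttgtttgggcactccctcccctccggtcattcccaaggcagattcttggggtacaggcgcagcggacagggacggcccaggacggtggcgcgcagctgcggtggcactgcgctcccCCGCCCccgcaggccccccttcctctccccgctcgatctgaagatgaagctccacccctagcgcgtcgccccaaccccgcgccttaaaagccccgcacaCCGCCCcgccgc
Tubb3: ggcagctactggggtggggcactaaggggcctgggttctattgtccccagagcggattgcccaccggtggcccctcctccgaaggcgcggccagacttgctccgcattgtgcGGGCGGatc
Uchl1: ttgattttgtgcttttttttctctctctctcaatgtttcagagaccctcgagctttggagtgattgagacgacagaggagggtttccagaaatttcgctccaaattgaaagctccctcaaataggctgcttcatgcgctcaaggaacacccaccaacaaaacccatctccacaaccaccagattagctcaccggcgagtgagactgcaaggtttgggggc
The printed stretches of Ina and Tubb3 had GC contents of 70.8% and 67.8%, and that of Uchl1 had 48.2%. In the 250 bases before the RefSeq start, a GC box on either strand was found in 32.7% of 32851 promoters, including those of Ina and Tubb3, with 2 matches each. The 250 bases of Uchl1 held none, nor a CCAAT box (CCAAT, in 33.8% of promoters) or a TATA element (TATAA, in 22.8%). Those of Ina held neither of these. Those of Tubb3 held 1 CCAAT box and 2 TATA matches, which overlap on opposite strands at offsets -31 and -30. For Tubb3 only 1 GC box, at offset -138, lies in the printed stretch, and its other matches lie past the end of that stretch. A match is a description of letters and not of a bound site.

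Against the whole transcriptome, differences were taken on the log2(FPKM + 1) scale over the protein-coding genes that reached an FPKM of 1 in 1 or both of the libraries compared. Between PS19 and WT the median of the 8 genes was -0.28 over a range of -0.93 to 0.27, against -0.026 over all 12703 genes tested, and 5 of the 8 were lower in PS19, as were 53.7% of all genes tested. None of the 8 reached 2-fold in either direction, where the shares of all genes tested were 2.20% higher and 0.291% lower. At 1.5-fold only Gap43 was called, as lower at -0.93, where 2.71% of all genes were lower and 6.34% higher. Gap43 was near the end of the distribution, with 46 tested genes lower. Stmn2 at -0.57 and Uchl1 at -0.55 lay just inside the 1.5-fold threshold of 0.58, with 370 and 419 genes lower. Nefl at -0.33 and Tubb3 at -0.23 were nearer the middle, and Nefm at 0.04, Ina at 0.05 and Nefh at 0.27 were higher.

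Between PS19 Zbp1+/- and PS19 the median of the 8 genes was 0.66, against 0.041 over 12772 genes, and 7 of the 8 were higher in PS19 Zbp1+/-, as were 53.7% of all genes tested. Past 1.5-fold, 5 of the 8 were higher and none lower, where 9.37% of all genes were higher and 12.1% lower. These were Gap43 at 1.49, Tubb3 at 0.79, Ina at 0.70, and Stmn2 and Uchl1 at 0.66 each. That count rests on the deposited scaling: under TPM and with neuronal markers centred only Gap43 stayed past 1.5-fold, and by total reads only Gap43 and Tubb3 did. Under TPM Tubb3 was at 0.50, Ina at 0.42, Stmn2 at 0.38 and Uchl1 at 0.37. At 2-fold Gap43 alone was called, where 2.0% of all genes were higher and 5.16% lower, and 48 tested genes lay higher than Gap43. Nefm at 0.31 and Nefl at 0.29 were higher by less, and Nefh stood at -0.07. This comparison and the preceding one share the PS19 library, so a low PS19 value enters both with opposite signs.

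Between PS19 Zbp1+/- and WT the median of the 8 genes was 0.28, against 0.010 over 12436 genes. Past 1.5-fold, Ina alone was called, as higher at 0.75, where 6.71% of all genes were higher and 7.12% lower. Gap43 at 0.56 and Tubb3 at 0.55 lay just under that threshold. No gene of the 8 reached 2-fold, where 1.07% of all genes were higher and 2.28% lower. Stmn2 at 0.09, Uchl1 at 0.10 and Nefl at -0.03 were close to their WT level.

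**Figure D3:**
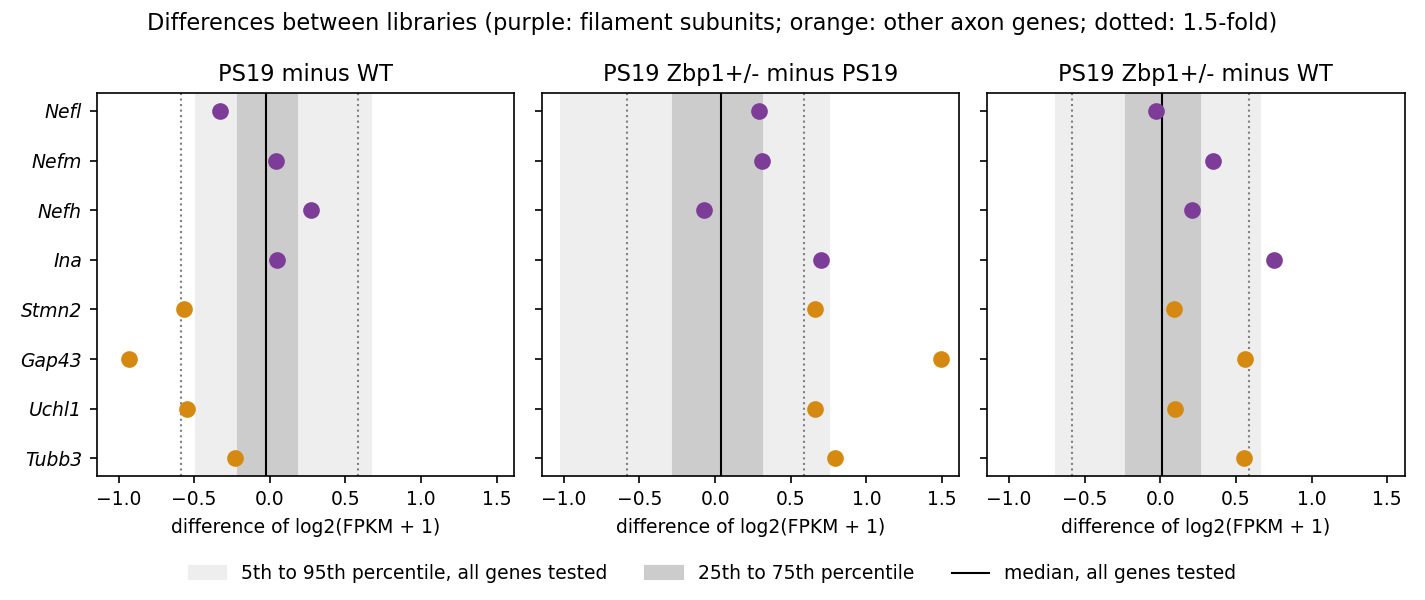
Difference of log2(FPKM + 1) for the 8 genes (dots) in each of the 3 comparisons (panels, same horizontal scale), over the 5th to 95th percentile (pale band), 25th to 75th percentile (grey band) and median (line) of all genes tested, with dotted lines at 1.5-fold. Gap43 lies outside the pale band at -0.93 and 1.49 in the first and middle panels. Stmn2 (-0.57) and Uchl1 (-0.55) also lie outside it in the first panel, Tubb3 (0.79) in the middle panel and Ina (0.75) in the last.

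The deposited scaling bears on these values. Rescaling to an equal FPKM sum (TPM) moved the median of all genes by 0.110 for PS19 against WT and by -0.246 for PS19 Zbp1+/- against PS19, and scaling by total reads moved the latter by -0.161. The neuronal markers moved as well: 11 of 13 were lower in PS19 than in WT, with a median of -0.25, and 12 of 13 were higher in PS19 Zbp1+/- than in PS19, with a median of 0.46. With the median neuronal marker set to 0, the 8 genes had a median of -0.03 between PS19 and WT and of 0.19 between PS19 Zbp1+/- and PS19. Relative to that marker Gap43 kept -0.68 and 1.03, Stmn2 -0.32 and 0.20, and Uchl1 -0.30 and 0.19. Tubb3 changed sign between PS19 and WT, to 0.02. Nefl at -0.17 and Nefm at -0.15 changed sign between PS19 Zbp1+/- and PS19. The sign of Nefm between PS19 and WT also turned, to -0.05, when each gene was set against genes of like GC content and length. Nefh stayed higher in PS19 than in WT under all 4 scalings, from 0.30 to 0.53.

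**Figure D4:**
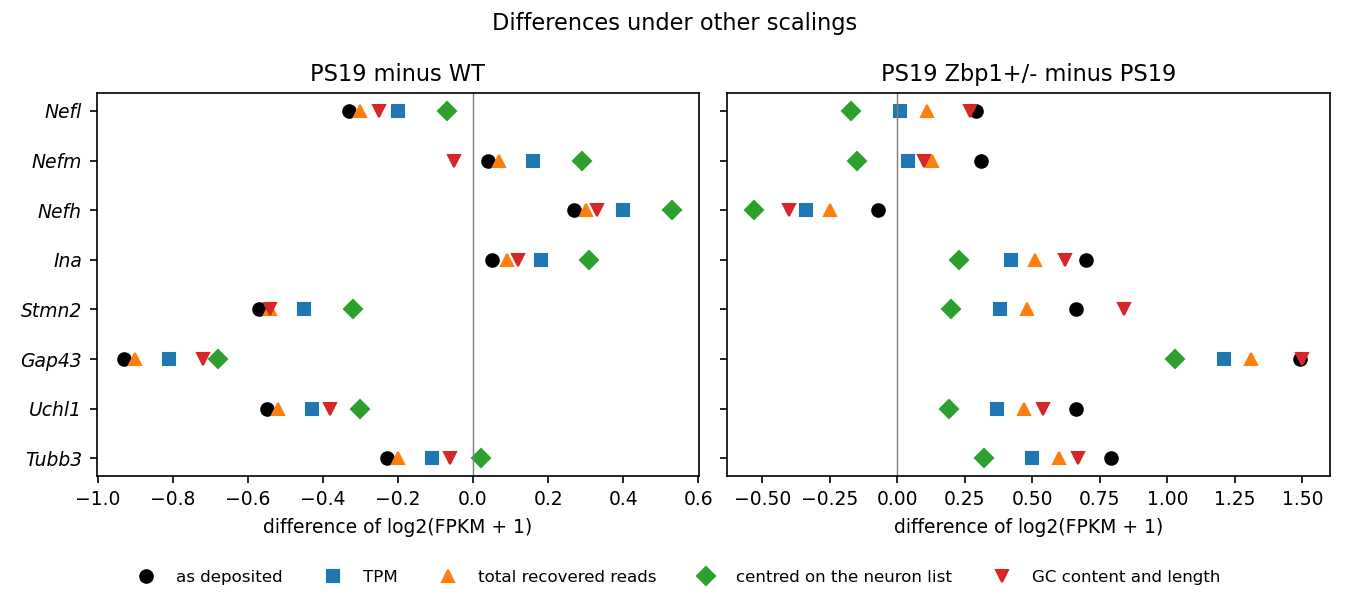
Difference of log2(FPKM + 1) for each gene (rows) as deposited (black circles) and under 4 other scalings (coloured symbols), between PS19 and WT (left) and between PS19 Zbp1+/- and PS19 (right), on separate horizontal scales. Gap43 stays between -0.93 and -0.68 on the left and at 1.03 or more on the right, while Nefl and Nefm cross 0 on the right.

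Cell and region markers moved with some of these genes, and their part in the results was not tested. Beside Gap43, the 6 immature neuron markers summed to FPKM values of 43.8, 17.0 and 45.8 in WT, PS19 and PS19 Zbp1+/-, most of it Calb2 (31.2, 9.49 and 34.8), with Eomes at 0 reads in PS19 Zbp1+/-. Igfbpl1 was also lowest there, with 60, 21 and 7 reads. Of 5 markers tested between PS19 Zbp1+/- and WT, 2 were higher and 3 lower, with a median of -0.05. Dcx, the doublecortin gene that defines newborn neurons, was level at 1.25, 1.14 and 1.17. Beside Ina, Tubb3 and Gap43, the 8 cortex and subiculum markers summed to 55.5, 47.1 and 91.6, led by Fezf2 (14.4, 9.62 and 33.9) and Bcl11b (18.1, 15.7 and 25.2). Of these markers 4 were higher and 4 lower in PS19 than in WT. In PS19 Zbp1+/- against PS19, 7 were higher and 1, Rorb, was lower (1.90 to 1.24 from PS19 to PS19 Zbp1+/-). Beside Nefh, the 6 markers of parvalbumin interneurons, cells with much neurofilament, summed to 96.7, 123 and 103, with 5 of 6 higher in PS19 than in WT and Pvalb itself at 31.6, 36.7 and 28.2. The 11 markers of thalamus and striatum summed to 50.8, 73.1 and 31.6, so that the PS19 library, in which Nefh was highest, was also highest for these. The thalamic genes Prkcd (780, 2211 and 148 reads), Tcf7l2 (149, 582 and 64), Rora (544, 1491 and 425) and Slc17a6 (278, 698 and 381) were past 2-fold higher in PS19 than in WT. Endothelial markers summed to 37.7, 39.1 and 53.5, most of it Cldn5 (22.4, 19.1 and 38.1) in PS19 Zbp1+/-. Of the 5, 4 were lower in PS19 Zbp1+/- than in PS19, with a median of -0.14.

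Across all well expressed genes, those nearest to each of the 3 neurofilament genes were found by the Euclidean distance of centred log2(FPKM + 1) over the 3 libraries, among 2491 genes with a mean FPKM of at least 20. Nearest to Nefl were Tmeff1 (FPKM 33.1, 26.4 and 32.5), the glycolytic kinase Pgk1 (182, 144 and 178) and Klc1 (162, 129 and 157), a kinesin light chain. Nearest to Nefm were Camta1, H1f0 and Dnajc27, and nearest to Nefh were Rere, Megf9 and Serpine2, all at distances of at most 0.0168. Over 3 libraries many genes come this close. Within the 8, Stmn2 and Uchl1 were the closest pair at 0.01, Ina and Tubb3 followed at 0.21, and Nefh and Gap43 were the farthest apart at 1.16. Genes outside the 8 came about as close to Stmn2 and Uchl1: Cyb561 at 0.0101 and 0.0102, and Ackr1 at 0.0146 and 0.0042.

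Other genes of the axonal cytoskeleton were read from 9 lists. The median of all genes tested was -0.026 between PS19 and WT and 0.041 between PS19 Zbp1+/- and PS19. Past 1.5-fold, the counts below stand against 6.34% higher and 2.71% lower of all genes in the former comparison, and 9.37% higher and 12.1% lower in the latter. The 12 tubulins, partners of Tubb3 in the microtubule, resembled it: 9 were lower in PS19 than in WT, with a median of -0.27 and none past 1.5-fold, and 11 were higher in PS19 Zbp1+/- than in PS19, with a median of 0.65 and 7 past 1.5-fold. Tubb2a had FPKM values of 279, 190 and 319, and Tuba1b had 197, 137 and 282, past 2-fold at 1.03 in the latter comparison. Tubb5 reached 0.98 there. Tubb4a, a tubulin rich in oligodendrocytes, was at 279, 306 and 382, and Tubb6 at 3.17, 3.92 and 3.70. Tubulin genes are alike in sequence, so the split of reads among them is uncertain, and Tubb3 belongs to that family.

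The 15 growth cone and stathmin genes had medians of -0.26 and 0.61. In PS19 against WT, 12 were lower, and Fabp7 (-0.89) and Marcksl1 (-0.64) were past 1.5-fold. Fabp7, though held in this list, is a fatty acid binding protein of glia and progenitors and not a growth cone protein. In PS19 Zbp1+/- against PS19, 13 were higher, 8 of them past 1.5-fold. Basp1, a membrane protein of the growth cone related in function to Gap43, had FPKM values of 236, 161 and 334 and reached 1.05, and Crmp1 reached 0.88. Stmn4, a close relative of Stmn2, ran opposite to it, at 57.2, 62.6 and 40.5, which gave 0.13 and -0.61. Marcks stood at -0.08 in the latter comparison, and Dpysl3 at 0.08 in the former.

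Genes known to be induced in neurons by a cut axon gave no common direction. Of 16 tested between PS19 and WT, 7 were higher and 9 lower, with a median of -0.05. Atf3, the transcription factor that marks injured neurons, had 27, 88 and 12 reads, which put PS19 at 3.25 times WT (2.09 to 5.21) and PS19 Zbp1+/- at 0.149 times PS19 (0.0742 to 0.273). On the log2 scale it stood at 0.96 and -1.31. Socs3, an inhibitor of cytokine signalling, had 31, 123 and 36 reads and stood at 1.09 between PS19 and WT. Both are also made by glia, and the astrocyte and microglia marker sums given above were highest in the same library, with no test of their part in these values. Cckbr, a neuropeptide receptor, went with Gap43, from 180 reads to 90 and 264, at -0.72 and 1.28. Npy was at -0.50 in PS19 against WT, and Vgf at 0.85 and Gadd45g at -1.40 in PS19 Zbp1+/- against PS19. The median in the latter comparison was -0.37, with 3 genes higher and 4 lower past 1.5-fold. Sprr1a had no reads in WT or PS19 Zbp1+/-, and Gal none in PS19 Zbp1+/-.

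The 17 tested genes of axon degeneration and injury signalling had medians of -0.00 and 0.38, with 0 higher and 1 lower past 1.5-fold in PS19 against WT, and 3 higher and 0 lower in PS19 Zbp1+/- against PS19. The 1 lower gene was Rtn4r, the Nogo receptor, at FPKM values of 51.7, 33.9 and 58.1. Its partner Lingo1 had 58.6, 47.3 and 119, and at 1.31 was the gene of this list farthest from PS19. Sarm1, the executioner of axon death, had 6.03, 7.35 and 10.3. Mycbp2 was at 0.31 in PS19 against WT, and Nmnat1 at -0.40 and Nampt at -0.32 in PS19 Zbp1+/- against PS19.

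Axonal transport genes, 14 in all, had medians of -0.09 and 0.35. Kif5a, the neuronal kinesin that carries neurofilaments, had FPKM values of 253, 197 and 339, or -0.36 and 0.78. Kif5b, its widely expressed relative, had 37.7, 41.7 and 29.2, or 0.14 and -0.50. Dync1h1 was at 0.41, Kif1b at 0.38 and Dync1i1 at -0.41 in PS19 against WT, and Kif1a at 0.64 and Kif1b at -0.05 in the next comparison. The 11 genes of the initial segment and spectrin skeleton had a median of 0.30 in PS19 against WT, opposite in sign to that of the 8 axon genes, with Cntn2 (0.78), Nfasc (0.63) and Ank3 (0.60, which was named after its value was seen) past 1.5-fold and none lower. Cntn1 was at -0.13 and Sptbn4 at -0.10. Cntn2 and Nfasc are also made by oligodendrocytes, whose markers were all higher in PS19 than in WT (9 of 9, median 0.81). In PS19 Zbp1+/- against PS19 all 9 were lower (median -1.40), with Cntn2 at -0.73 and Nfasc at -0.11. The part of oligodendrocytes in these values was not tested. Sptbn4 was at 0.54 and Ank2 at -0.11 in that comparison.

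The filament proteins of other cells set the scale of change in the same tissue. Gfap, the astrocyte filament protein, had FPKM values of 98.4, 768 and 112, and Vim, vimentin, had 12.6, 61.5 and 8.54, so that the glial filaments were higher by 2.95 and 2.20 log2 units in PS19, where the largest increase of a neurofilament gene was 0.27. Prph, peripherin, a neuronal filament protein of peripheral and some central neurons, was near the limit of detection with 36, 12 and 45 reads. Plec, a linker of filaments, was at 0.30 in PS19 Zbp1+/- against PS19. The relatives of Uchl1 and the ubiquitin precursors had medians of -0.29 and 0.03 over 9 genes. Otub1 (89.0, 65.8 and 102) followed the order of Uchl1, and Bap1 was at 0.62 in PS19 Zbp1+/- against PS19. Ubb was at -0.37 in PS19 against WT, and Rps27a at -0.21 in PS19 Zbp1+/- against PS19. The 8 tested RNA-binding and related genes known to act on Stmn2 or neurofilament messages had medians of -0.15 and 0.02, with none past 1.5-fold. In this list Sod1 at -0.37 and Elavl4 at -0.30 were lowest in PS19 against WT, and Elavl4 stood at 0.51, Elavl3 at 0.41 and Hnrnpa2b1 at -0.26 in PS19 Zbp1+/- against PS19.

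**Figure D5:**
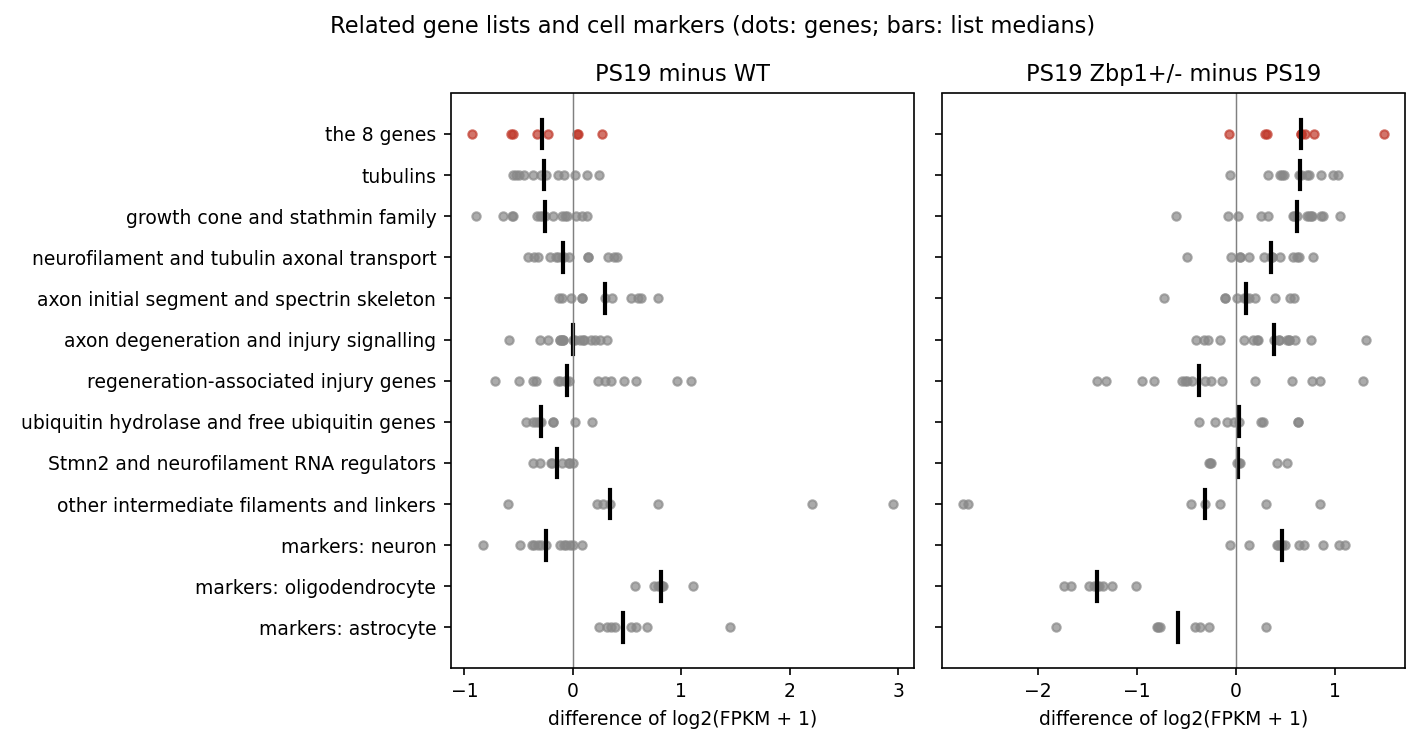
Difference of log2(FPKM + 1) for the genes (dots) and the median (bars) of the 8 axon genes, 9 related lists and 3 cell marker lists, between PS19 and WT (left) and between PS19 Zbp1+/- and PS19 (right), on separate horizontal scales. The medians of the 8 genes, the tubulins and the growth cone list lie at -0.28, -0.27 and -0.26 on the left and at 0.66, 0.65 and 0.61 on the right.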

How the data were processed

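The authors deposited 1 table of FPKM values for 54532 genes with 1 column per library. Trim Galore 0.6.5, STAR 2.5.3a, featureCounts 2.0.4 and the build mm39 are named in the submitters' processing notes, but gene positions in the table equal those of GENCODE M21 (GRCm38) for 98.3% of 54409 shared gene IDs and for all 8 genes, so positions are given as GRCm38. Dividing FPKM times length by the value of a single read gave whole numbers for 100% of the values above 0 (within 0.01 of a read). This gave the reads and the library sizes implied by the FPKM values, 17253479, 17287957 and 15826984 in WT, PS19 and PS19 Zbp1+/-. The recovered reads were 16746085, 16400328 and 17109734, so the implied sizes are not read totals. Only for PS19 Zbp1+/- was the implied size below the reads. Differences are of log2(FPKM + 1), pseudocount 1, a scale that understates changes of weakly expressed genes. Calls at 2-fold and 1.5-fold involve no test. Read ratios have exact 95% intervals. The self-test on simulated data recovered the simulated reads. The 8 genes, the 9 related lists and the 10 marker lists were chosen with earlier results of these data known. From each related list the text names the 2 genes farthest up and the 2 farthest down in the comparisons of PS19 with WT and of PS19 Zbp1+/- with PS19, besides the 8 genes, overlapping genes, the 3 genes most like each of Nefl, Nefm and Nefh, and Zbp1. Some genes that this rule picks are not reported here. Other genes were named after their values were seen. Alternatives were pseudocounts of 0.1 and 5, other filters, TPM, total reads, the neuronal marker median, all biotypes, a correction by 10 bins of GC content and 5 of length, and leaving out the most changed gene. Calculations ran in Python 3.11.15 with scipy 1.17.1 for intervals, pandas 2.3.3, numpy 2.4.6, and plots in matplotlib 3.10.9.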

Additional observations from a re-analysis of the deposited data

How the results depend on the processing

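No paired analysis was possible because each genotype has 1 library. The median of the 8 genes between PS19 and WT was -0.28 as reported, -0.15 under TPM, -0.03 centred on the neuronal markers and -0.16 after correction for GC content and length. Between PS19 Zbp1+/- and PS19 it was 0.66 as reported, then 0.38 under TPM, 0.47 by total reads, 0.19 centred on neuronal markers and 0.58 after the GC and length correction. Between PS19 Zbp1+/- and WT it was 0.28 as reported, then 0.13 under TPM and by total reads, -0.01 centred on neuronal markers, 0.21 after the GC and length correction and 0.21 without Ina. The causes were not tested. With pseudocounts of 0.1 and 5 the medians were -0.28 and -0.27, 0.67 and 0.63, and 0.29 and 0.25. Genes past 2-fold between PS19 and WT numbered 317 as reported, 642 and 75 with pseudocounts of 0.1 and 5, 102 at a mean FPKM of at least 5, 530 centred on neuronal markers, 690 over all biotypes and 1150 at 1.5-fold. Between PS19 Zbp1+/- and PS19 the same settings gave 914 as reported, then 1614, 253, 418, 1793, 1569 and 2741. Between PS19 Zbp1+/- and WT they gave 416, then 833, 90, 184, 631, 1010 and 1720. The share of higher genes among those past 2-fold was 88.3%, 27.9% and 32.0% in the 3 comparisons as reported, and under TPM 92.5%, 10.5% and 17.2%, by total reads 89.9%, 14.6% and 17.2%, centred on neuronal markers 96.8%, 3.01% and 6.81%, and after the GC and length correction 93.3%, 17.1% and 29.7%. Under the 4 scalings, 6, 6 and 4 of the 8 genes kept their sign in the 3 comparisons. No gene called at 1.5-fold as reported changed sign under these scalings or pseudocounts, but calls were lost and gained. The 5 genes called between PS19 Zbp1+/- and PS19 became 1 under TPM and centred on neuronal markers (Gap43), 2 by total reads (Gap43 and Tubb3) and 4 after the GC and length correction (without Uchl1, at 0.54). Ina lost its call between PS19 Zbp1+/- and WT, at 0.46 centred on neuronal markers, and Gap43 at 0.76 and Tubb3 at 0.59 gained one after the GC and length correction. Between PS19 and WT Gap43 was called throughout, and Stmn2 as well with a pseudocount of 0.1. Stmn2 and Uchl1 between PS19 Zbp1+/- and WT, at 0.09 and 0.10, turned to -0.07 and -0.06 under TPM, -0.06 and -0.05 by total reads, and -0.20 and -0.19 centred on neuronal markers. Nefh there turned to -0.09 centred on neuronal markers and to -0.10 after the GC and length correction, and Nefl to 0.04 after the latter. Depth limits little here, since the 8 genes had 1294 reads or more in every library, and the single library per genotype is the limit.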
